A study of Homo sapiens with 17 samples.

Results

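The genes described here are the core of nonhomologous end-joining (NHEJ), the repair pathway that seals DNA double-strand breaks without a template, together with the polymerase of an alternative end-joining route. They are 10 genes of the 60664 in the table, namely *XRCC5*, *XRCC6*, *PRKDC*, *DCLRE1C*, *XRCC4*, *LIG4*, *NHEJ1*, *PAXX*, *APLF* and *POLQ*. They were chosen by name for their roles, with earlier results of these data known. All 10 were found by symbol and all 10 passed the filter on low values, set at an average of 10 normalized counts or more, which 15599 genes passed in all. Levels are counts on genes divided by 1 size factor per library, called normalized counts below.

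RNA-Seq was measured in SF8628 cells, an established line from a diffuse intrinsic pontine glioma that carries a mutation of histone H3. Cells were treated with vehicle (DMSO) or with 1 μM AZD5153, an inhibitor of the BET bromodomain proteins, for 24 or 48 hours, with 3 libraries in each of the 4 groups and no irradiation named for any of them. The study asked how BET bromodomain inhibition changes DNA repair genes. All libraries come from this 1 line, and neither the labels nor the methods say whether the 3 libraries of a group came from separate cultures, so the p-values measure the spread between these libraries, which may be technical.

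The libraries held from 15759148 to 27335220 reads counted on genes. One of them stood apart from its group. DMSO 24 hours replicate 1 had a chi-square per degree of freedom over genes of 15.2 and 22.9 against the other libraries of its group, where every other pair of libraries within a group lay between 2.09 and 4.82. Without it, 10803 rather than 10679 of all 15599 genes tested changed at 24 hours (68.5% with all libraries kept). Of the 10 end-joining genes, 9 rather than 8 changed, *PAXX* being the gene added. Of the other 9 genes, *NHEJ1* moved most, from a log2 fold change of 0.11 to 0.24 without a call, while *XRCC4* was at -2.24 rather than -2.33, *POLQ* at -1.86 rather than -1.90 and *LIG4* at 0.73 rather than 0.67. The effect of AZD5153 then differed between the times for 5 genes rather than 4, and 6 rather than 5 were lower at 48 than at 24 hours in DMSO, again with *PAXX* added, beside 24.5% and 19.3% of all genes with all libraries kept. Over all 15599 genes the effect then differed between the times for 4527 rather than 3829.

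Of the markers of glioma cells, *OLIG2* had 0 reads in all 12 libraries and *PDGFRA* did not exceed 5.40 normalized counts, whereas *SOX2* lay between 119 and 252, *NES* between 527 and 2205 and *VIM* between 14454 and 28352. Some of these markers differed between the arms, in both directions. The mean of *NES* was 2050 in DMSO and 758 with AZD5153 at 24 hours and 1993 and 544 at 48 hours, and that of *SOX2* was 203 and 134 and then 236 and 192. *CD44* went the other way, with 6712 and 7531 and then 4647 and 6725, and *VIM* had 22869 and 18551 at 24 hours but 15327 and 15450 at 48 hours. The sum of the 9 glioma markers was 28319 to 37580 in DMSO and 26257 to 28244 with AZD5153 at 24 hours, and overlapped at 48 hours, with 22113 to 22389 and 22005 to 23573. Markers of other cell types differed too. Of 6 immune cell markers *AIF1* and *CD3E* were at 0 and *PTPRC* did not exceed 4.46, and the sum of the 6, mostly *CSF1R*, was 183 to 228 in DMSO and 43.0 to 50.9 with AZD5153 at 24 hours and 194 to 226 and 34.6 to 59.8 at 48 hours. *CSF1R* was lower (means of 189 and 27.9, then 197 and 34.9), whereas *CD14* was not (12.0 and 16.9, then 12.9 and 12.8). Of 5 endothelial markers *CDH5* was at 0, and the sum of the 5 went from 333 to 385 in DMSO against 69.8 to 95.2 with AZD5153 at 24 hours, and from 607 to 645 against 59.0 to 75.7 at 48 hours. *PECAM1* (means of 289 and 43.3, then 528 and 30.5) and *VWF* (58.4 and 17.2, then 84.7 and 24.5) were lower, whereas *KDR* was higher (7.48 and 17.8, then 7.10 and 12.3). The 5 neuron markers summed to between 892 and 1096 in DMSO and between 1759 and 1982 with AZD5153 at 24 hours, and to between 1019 and 1159 and between 2110 and 2251 at 48 hours, with *RBFOX3* at or below 13.0. That sum was higher through *MAP2* (means of 199 and 653 at 24 hours, 283 and 1018 at 48 hours) and *TUBB3* (22.6 and 402, then 19.3 and 291), whereas *SNAP25* was lower (33.3 and 11.5, then 51.9 and 19.7) and *SYT1* had 749 and 801 and then 723 and 825. Their part in the results was not tested.

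A double-strand break repaired by NHEJ is first held by the Ku heterodimer of Ku70 and Ku80, the products of *XRCC6* and *XRCC5*. Ku recruits the kinase DNA-PKcs (*PRKDC*), which activates the nuclease Artemis (*DCLRE1C*) to trim ends that cannot be joined directly. The ends are then sealed by DNA ligase IV (*LIG4*), which is stabilised by XRCC4 and aided by XLF (*NHEJ1*), PAXX and APLF. Polymerase theta (*POLQ*) belongs to a different route, in which short matching stretches of resected ends are paired and filled in. In gliomas treated with radiation, these pathways and homologous recombination, which copies a template, handle the breaks that radiation leaves.

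*XRCC4* and *POLQ* were lower with AZD5153, and *LIG4*, whose product is the partner of XRCC4, was higher, as was *APLF*. The 250 bases before the RefSeq start of *XRCC4*, *LIG4* and *POLQ* are shown, as these are genes that the results turn on. They are taken from RefSeq on GRCh38.p14 and written 5′ to 3′ on the strand of the gene. The gene positions given further on are those of GENCODE, in which *XRCC4* starts 49 bases and *LIG4* 19 bases further upstream, so that the ends of these windows lie inside the GENCODE genes, and *POLQ* starts at the same base. The window of *XRCC4* lies at chr5:83077297-83077546 on the plus strand, *LIG4* at chr13:108218350-108218599 on the minus strand and *POLQ* at chr3:121545989-121546238 on the minus strand. Capitals mark matches to a GC box (GGGCGG) or to the letters TTTGAA, the cell cycle homology region (CHR), on either strand.
XRCC4: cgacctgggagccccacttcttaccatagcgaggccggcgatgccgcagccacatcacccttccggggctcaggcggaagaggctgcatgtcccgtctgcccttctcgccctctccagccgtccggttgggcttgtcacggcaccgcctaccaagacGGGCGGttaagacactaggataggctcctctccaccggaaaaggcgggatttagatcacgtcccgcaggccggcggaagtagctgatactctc
LIG4: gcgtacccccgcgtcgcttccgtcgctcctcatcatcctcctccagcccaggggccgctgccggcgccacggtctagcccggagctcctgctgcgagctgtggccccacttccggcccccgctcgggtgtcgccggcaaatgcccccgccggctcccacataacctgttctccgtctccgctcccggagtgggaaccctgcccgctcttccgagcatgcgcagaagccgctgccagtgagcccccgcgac
POLQ: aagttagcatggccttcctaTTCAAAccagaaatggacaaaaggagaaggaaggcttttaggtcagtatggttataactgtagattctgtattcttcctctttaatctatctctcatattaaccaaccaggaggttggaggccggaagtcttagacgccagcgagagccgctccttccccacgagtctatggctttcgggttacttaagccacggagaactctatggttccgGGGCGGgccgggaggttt
The *XRCC4* window held 1 GC box, starting at position -93 from the RefSeq start, and the *POLQ* window held 1 at position -18 and 1 CHR-like match at position -230. No letters of the *LIG4* window are in capitals, since none of the motifs searched was found there. Of the 10 genes, 8 had an entry in the promoter table, all but *XRCC5* and *PRKDC*. The GC box was found in 7 of these 8 windows and in 42.6% of 35116 windows of the same length, the CHR-like letters in 1 of 8 and in 13.3%, CCAAT in 3 of 8 and in 32.0%, and the E2F-like letters TTTNNCGC in 1 of 8, that of *XRCC6*, and in 5.92%. The E-box CACGTG (6.34% of all windows), the NRF1-like motif (1.03%) and the ZNF143-like motif (0.225%) were found in 0 of the 8. These are matches of letters only.

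Per kilobase of merged exon length, the Ku genes were by far the highest of the 10 in DMSO at 24 hours. *XRCC5* stood at 3212 ± 214 normalized counts per kilobase (SD, n = 3) and *XRCC6* at 2574 ± 34.5, levels that placed them at the 99.1 and 98.7 percentile of the genes tested. *PRKDC* (556 ± 32.3) and *PAXX* (441 ± 166) followed, with overlapping libraries, and then *POLQ* (151 ± 6.74), *LIG4* (103 ± 7.77), *XRCC4* (75.6 ± 9.56) and *DCLRE1C* (30.6 ± 3.70), each with every library below every library of the gene before it. *NHEJ1* (10.3 ± 1.69) and *APLF* (9.74 ± 0.66) were the lowest and overlapped. With AZD5153 at 24 hours the order changed in several places. *XRCC6* (2219 ± 1.82) stood above *XRCC5* (1863 ± 109), *LIG4* (164 ± 20.1) above *POLQ* (40.4 ± 0.93), and *XRCC4* (14.7 ± 1.64) below *DCLRE1C* (16.8 ± 0.49) and *APLF* (15.6 ± 1.69), with libraries that overlapped those of both. These levels use the exons of all isoforms together, so a gene with long rare exons is placed too low. Genes that share exonic bases with another gene, as *DCLRE1C*, *NHEJ1* and *APLF* do, may be placed too low as well.

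**Figure D1:**
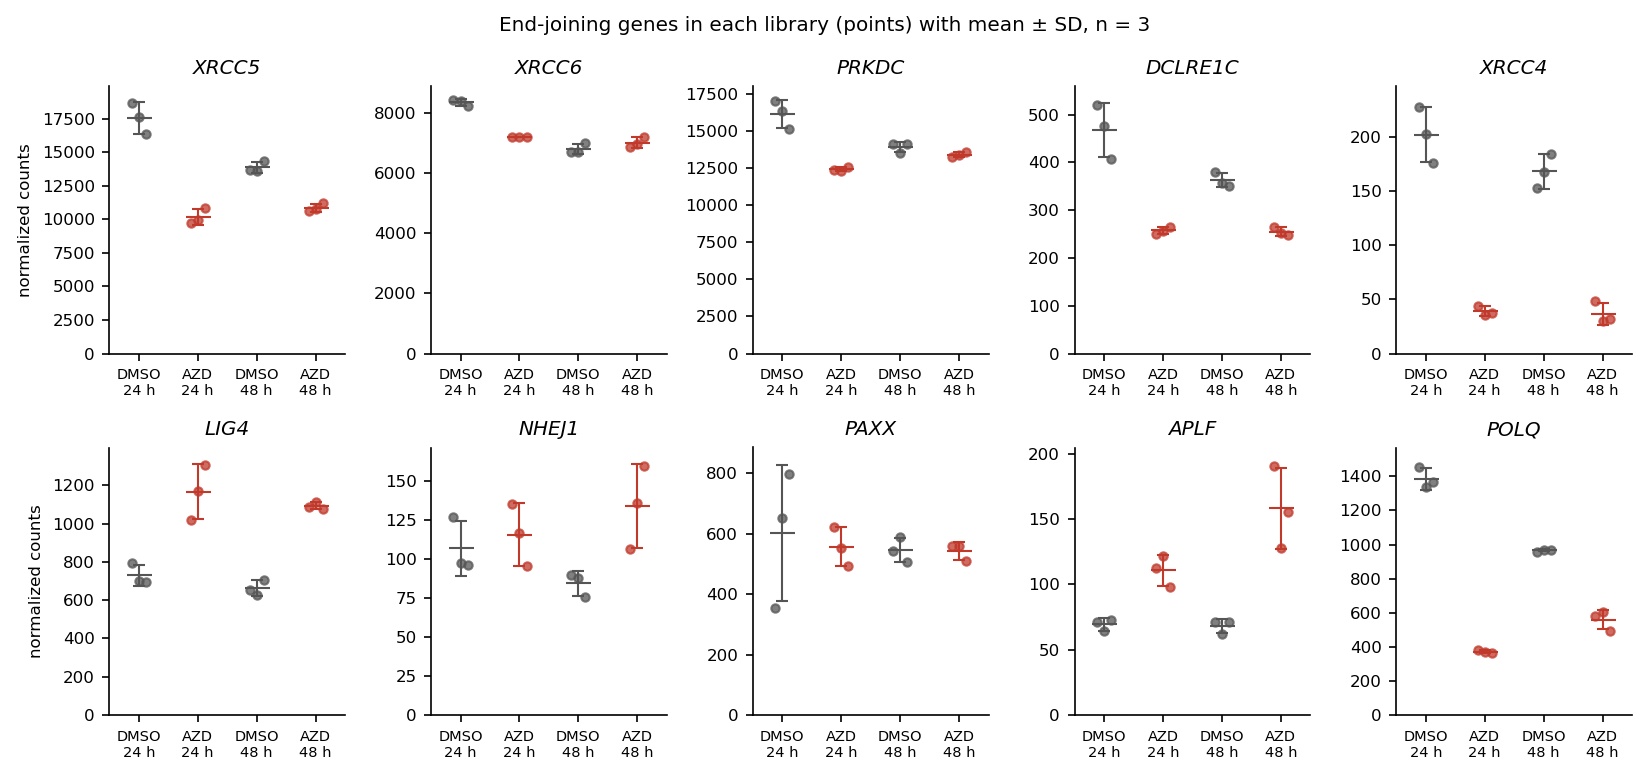
Normalized counts (vertical axis, from 0) of each of the 10 end-joining genes in the 12 libraries, with DMSO in grey and AZD5153 in red at 24 and 48 hours; points are libraries, horizontal lines are means and bars are ± SD (n = 3). The red points of *XRCC4* and *POLQ* lie far below the grey ones at both times, those of *LIG4* and *APLF* lie above, and *PAXX* spreads from 355 to 798 in DMSO at 24 hours.

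With AZD5153 at 24 hours, 6 of the 10 genes were lower than with DMSO and 2 were higher in limma at an adjusted p under 0.05. Over all 15599 genes tested, 34.6% were lower and 33.9% higher, 68.5% in all, so the number of end-joining genes that changed was near that of genes in general. At 48 hours 4 were lower and 3 higher, beside 33.9% and 33.1% of all genes, 67% in all. That count rests on the scaling, since 6 were lower with equal totals and with quantile normalization, 9 changed in all, *XRCC6* and *PRKDC* being added. Of all 15599 genes, 6511 were lower and 3894 higher with equal totals, and 4853 and 5800 with quantile normalization. Without either change of scaling these numbers were 5294 and 5159. *XRCC4*, *POLQ*, *DCLRE1C* and *XRCC5* were lower at both times (27.1% of all genes were), *LIG4* and *APLF* were higher at both (26% of all genes), *XRCC6* and *PRKDC* were lower at 24 hours, *NHEJ1* was higher at 48 hours and *PAXX* passed at neither time. The AZD5153 and DMSO libraries did not overlap for 8 of the 10 genes at 24 hours and for 7 at 48 hours, beside 68.8% and 74.7% of all genes. The median log2 fold change of the 10 genes was -0.30 at 24 hours and -0.030 at 48 hours, beside 0.00037 and 0.0011 over all genes. Scaling by size factors places the all-gene median near 0. It was -0.12 and -0.17 with equal totals and 0.065 and 0.087 with quantile normalization. Fold changes here are thus relative to the other genes, and a change in total RNA per cell would not show. Because the libraries are bulk RNA, fewer cells that transcribe a gene and less of its RNA per cell cannot be told apart in any of these values.

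**Figure D2:**
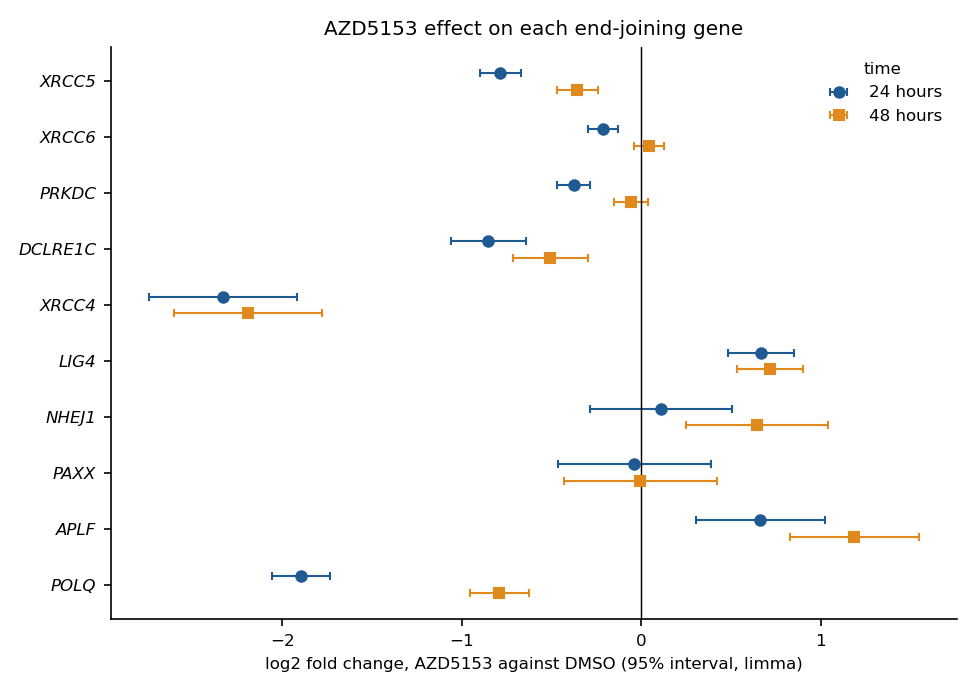
Log2 fold change of AZD5153 against DMSO (horizontal axis) for each end-joining gene at 24 hours (blue circles) and 48 hours (orange squares), with 95% intervals from limma. *XRCC4* sits near -2.3 and -2.2 at the 2 times, *POLQ* moves from -1.90 to -0.79, and *LIG4* and *APLF* lie to the right of 0.

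The Ku genes, whose products bind DNA ends, changed unequally. *XRCC5* (ENSG00000079246, chr2:216107464-216206303, plus strand, GRCh38) had 18687, 17598 and 16349 normalized counts in DMSO at 24 hours and 9709, 9978 and 10849 with AZD5153. At 48 hours it had 13706, 13593 and 14356 in DMSO and 10585, 10759 and 11181 with AZD5153. Every AZD5153 library was below every DMSO library of its time, and below every DMSO library of the other time too. The level fell by 0.78 ± 0.054 on the log2 scale (SE; limma, adjusted p = 2.7e-09) at 24 hours, to 58.0% of DMSO, and by 0.36 ± 0.054 (adjusted p = 2.3e-05) at 48 hours, to 78.1%. With quantile normalization between libraries the 48 hour value was -0.64 (limma, adjusted p = 1e-07).

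*XRCC6* (ENSG00000196419, chr22:41621163-41664048, plus strand) moved much less. It had 8423, 8406 and 8222 normalized counts in DMSO and 7200, 7205 and 7193 with AZD5153 at 24 hours. The groups did not overlap, and the difference was -0.21 ± 0.040 on the log2 scale (limma, adjusted p = 1.9e-04). At 48 hours the DMSO libraries had 6700, 6704 and 7009 normalized counts and the AZD5153 libraries 6859, 6974 and 7204, which overlapped. The 48 hour difference was 0.043 (95% interval -0.041 to 0.13; limma, adjusted p = 0.35). Its sign depends on the scaling. With libraries scaled to equal totals it was -0.13 (adjusted p = 0.0098) and with quantile normalization -0.16 (adjusted p = 0.0028), and the 24 hour value was -0.34 with equal totals. Equal totals move the median of all genes by -0.12 at 24 hours and -0.17 at 48 hours, and relative to that median *XRCC6* was at -0.22 and 0.040. The table lists 5 pseudogenes of *XRCC6*, of which the highest had a mean of 15.99 normalized counts beside 7342 for the gene.

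*PRKDC* (ENSG00000253729, chr8:47773111-47960178, minus strand), the DNA-dependent protein kinase, had 17024, 16333 and 15167 normalized counts in DMSO at 24 hours and 12396, 12315 and 12611 with AZD5153. At 48 hours the values were 14104, 13552 and 14134 in DMSO and 13244, 13404 and 13582 with AZD5153. The 24 hour groups were separate and the 48 hour groups overlapped by a narrow margin. The level fell by 0.38 ± 0.044 on the log2 scale (limma, adjusted p = 1.5e-06) at 24 hours, and at 48 hours the difference was -0.055 (95% interval -0.15 to 0.039; adjusted p = 0.29). The 48 hour result rests on the scaling, since it was -0.23 (limma, adjusted p = 0.00033) with equal totals, or -0.058 relative to the median of all genes, and -0.35 (adjusted p = 1.2e-05) with quantile normalization, which also gave -0.61 at 24 hours.

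*DCLRE1C* (ENSG00000152457, chr10:14897359-14954432, minus strand), the nuclease Artemis, had 520, 476 and 407 normalized counts in DMSO at 24 hours and 251, 256 and 266 with AZD5153. The 48 hour libraries had 380, 357 and 351 in DMSO and 265, 252 and 247 with AZD5153. All 6 AZD5153 libraries lay below all 6 DMSO libraries. The log2 fold change was -0.85 ± 0.098 (limma, adjusted p = 1.2e-06) at 24 hours, to 55.0% of DMSO, and -0.51 ± 0.098 (adjusted p = 2.6e-04) at 48 hours, to 70.3%, although quantile normalization gave -0.30 (adjusted p = 0.017) at 48 hours. The tail of the gene overlaps *SUV39H2* on the other strand over 159 exonic bases. The strand setting of the counting is not given in the sources used here. *SUV39H2*, a histone methyltransferase gene, was itself lower at 24 hours, with a log2 fold change of -1.05 (limma, adjusted p = 3.1e-07), and had -0.23 (adjusted p = 0.064) at 48 hours, at 47.9% and 85.0% of DMSO.

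The ligation step showed opposite changes in partner genes. *XRCC4* (ENSG00000152422, chr5:83077498-83353787, plus strand), the scaffold that holds and stabilises ligase IV, had 228, 203 and 177 normalized counts in DMSO at 24 hours. With AZD5153 it had 44.2, 35.8 and 37.9. At 48 hours it had 153, 168 and 185 in DMSO and 48.3, 30.4 and 31.7 with AZD5153. The highest AZD5153 library of either time was far below the lowest DMSO library. The level was 19.4% of DMSO at 24 hours, a log2 fold change of -2.33 ± 0.19 (limma, adjusted p = 2.5e-08), and 21.8% at 48 hours, a change of -2.19 ± 0.19 (adjusted p = 5.3e-08). These AZD5153 libraries held between 28 and 53 reads on *XRCC4*, so counting error is large beside these levels.

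*LIG4* (ENSG00000174405, chr13:108207439-108218368, minus strand), the ligase itself, had 795, 703 and 695 normalized counts in DMSO and 1020, 1170 and 1307 with AZD5153 at 24 hours. After 48 hours there were 655, 629 and 707 in DMSO and 1086, 1114 and 1078 with AZD5153. Every AZD5153 library was above every DMSO library. The level rose by 0.67 ± 0.087 on the log2 scale (limma, adjusted p = 4.6e-06) at 24 hours, to 159.5% of DMSO, and by 0.72 ± 0.087 (adjusted p = 2e-06) at 48 hours, to 165%.

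*NHEJ1* (ENSG00000187736, chr2:219069355-219160869, minus strand) encodes XLF, which forms filaments with XRCC4. It had 127, 97.5 and 96.3 normalized counts in DMSO and 135, 117 and 95.5 with AZD5153 at 24 hours, groups that overlapped. At 48 hours the values were 90.1, 87.8 and 75.6 in DMSO and 107, 136 and 160.0 with AZD5153, and all 3 treated libraries were higher. The 24 hour difference was 0.11 (95% interval -0.28 to 0.51; limma, adjusted p = 0.61) and the 48 hour rise 0.65 ± 0.19 (adjusted p = 0.006), or 1.01 with quantile normalization. With equal totals the 24 hour value was -0.011, or 0.11 relative to the median of all genes. A longer gene model, ENSG00000280537, shares 2034 exonic bases with *NHEJ1* on the same strand, and reads there cannot be told apart. That model had a mean of 14.02 normalized counts beside 110.4 for *NHEJ1*.

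*PAXX* (ENSG00000148362, chr9:136992422-136993984, plus strand), a paralog of XRCC4 and XLF that binds Ku, had 355, 652 and 798 normalized counts in DMSO at 24 hours and 623, 553 and 493 with AZD5153. At 48 hours it had 541, 589 and 507 in DMSO and 561, 560 and 510.0 with AZD5153. The groups overlapped at both times. The differences were -0.040 at 24 hours (95% interval -0.47 to 0.39; limma, adjusted p = 0.87) and -0.0051 at 48 hours (-0.43 to 0.42; adjusted p = 0.98), and the sign of both turned with quantile normalization. The 24 hour value depends on which library is left out. Without DMSO 24 hours replicate 1, which gave the 355, it was -0.38 (limma, adjusted p = 0.0017), and the DMSO libraries were then lower at 48 than at 24 hours by a log2 change of -0.40 (adjusted p = 0.0024). The sign of the 24 hour value turned without DMSO 24 hours replicate 3 (0.20), without replicate 2 of that group (0.057) and without AZD5153 24 hours replicate 3 (0.044).

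*APLF* (ENSG00000169621, chr2:68467572-68655862, plus strand) encodes a histone chaperone that links Ku with the XRCC4 and ligase IV complex. It had 71.0, 64.1 and 73.1 normalized counts in DMSO at 24 hours and 113, 122 and 97.9 with AZD5153. The 48 hour values were 71.2, 62.1 and 71.3 in DMSO and 191, 128 and 156 with AZD5153. All treated libraries were higher than all DMSO libraries. The rise was 0.66 ± 0.17 on the log2 scale (limma, adjusted p = 0.0025) at 24 hours and 1.19 ± 0.17 (adjusted p = 1.2e-05) at 48 hours, when the level was 232% of DMSO. *PROKR1* shares 1628 exonic bases with *APLF* on the same strand and had 0 reads in all libraries. How reads on shared bases were counted is not given, so this 0 does not show what is transcribed there.

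*POLQ* (ENSG00000051341, chr3:121431431-121545988, minus strand), the polymerase of theta-mediated end joining, had 1454, 1335 and 1364 normalized counts in DMSO and 379, 372 and 362 with AZD5153 at 24 hours. At 48 hours it had 958, 970 and 967 in DMSO and 580, 604 and 495 with AZD5153. The treated libraries were lower at both times, but the 48 hour groups were closer together from both sides. The level was 26.8% of DMSO at 24 hours, a log2 fold change of -1.90 ± 0.077 (limma, adjusted p = 5.2e-12), and 58.0% at 48 hours, a change of -0.79 ± 0.077 (adjusted p = 1.7e-07). Joining by polymerase theta acts on resected ends, which arise mostly in S and G2 phase, and genes of these phases moved as well. Of the S phase genes listed in Seurat, 41 of 43 were lower at 24 hours (median log2 fold change -1.50) and 35 of 43 at 48 hours (-0.76), where 34.6% and 33.9% of all genes were lower. Of the G2/M genes, 51 of 53 tested were lower at 24 hours (-1.83) and 48 of 53 at 48 hours (-0.997). Their part in the *POLQ* result was not tested.

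The effect of AZD5153 differed between 48 and 24 hours for 4 of the 10 genes, each time with a higher value at 48 hours, and 24.5% of all genes showed a difference, 14.4% with a higher and 10.1% with a lower value at 48 hours. The difference (effect at 48 hours minus effect at 24 hours) was 1.10 ± 0.11 on the log2 scale for *POLQ* (limma, adjusted p = 4.7e-06), 0.43 ± 0.076 for *XRCC5* (adjusted p = 8.3e-04), 0.32 ± 0.063 for *PRKDC* (adjusted p = 0.0016) and 0.26 ± 0.056 for *XRCC6* (adjusted p = 0.0038). The last was 0.15 (limma, adjusted p = 0.071) with quantile normalization, under which *APLF* passed instead, with 0.70 (adjusted p = 0.049). For *XRCC4* it was 0.14 (95% interval -0.44 to 0.72) and for *LIG4* 0.052 (-0.21 to 0.31), neither of which passed. The value for *APLF* was 0.52 (0.015 to 1.03; limma, adjusted p = 0.13), that for *NHEJ1* 0.54 (-0.023 to 1.09; adjusted p = 0.15) and that for *DCLRE1C* 0.34 (0.050 to 0.64; adjusted p = 0.083). Without DMSO 24 hours replicate 3, *DCLRE1C* was at 0.44 (limma, adjusted p = 0.021). Without DMSO 24 hours replicate 1, *PAXX* was at 0.37 (adjusted p = 0.038).

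The change over time was also taken within each arm. In DMSO, 5 of the 10 genes were lower at 48 than at 24 hours and 0 higher, beside 19.3% and 16.4% of all genes, 35.7% in all. These were *POLQ* (log2 change -0.52; limma, adjusted p = 9.6e-05), *DCLRE1C* (-0.36; adjusted p = 0.0093), *XRCC5* (-0.34; adjusted p = 1.9e-04), *XRCC6* (-0.30; adjusted p = 4.2e-05) and *PRKDC* (-0.21; adjusted p = 0.0014). With AZD5153, 2 were higher at 48 hours and 0 lower, beside 15.8% and 13.8% of all genes, 29.7% in all. *POLQ* rose by 0.59 ± 0.077 (limma, adjusted p = 3.8e-05). *APLF* was higher by 0.50 ± 0.17 (adjusted p = 0.037), a call that was lost without AZD5153 24 hours replicate 1 or 3 or AZD5153 48 hours replicate 1 or 3, with adjusted p between 0.074 and 0.17. The number of genes changed was also 1 with no minimum mean and with quantile normalization, and 3 with TMM factors and with only the groups compared. All comparisons with 48 hour AZD5153 share its libraries.

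Ratios between pairs of these genes within a library do not depend on the 1 factor by which each library is scaled. Quantile normalization would change them, and 4 were compared. They are ratios of normalized counts with no correction for gene length, so they are read only between libraries. For every *LIG4* count there were 0.29, 0.29 and 0.25 *XRCC4* counts in DMSO at 24 hours, 0.23, 0.27 and 0.26 at 48 hours, and 0.043, 0.031 and 0.029 with AZD5153 at 24 hours and 0.045, 0.027 and 0.029 after 48 hours. As a share, *XRCC4* to *LIG4* was 12.5% of DMSO at 24 hours and 13.3% at 48 hours. The ratio of *XRCC5* to *XRCC6*, the Ku partners, was 2.22, 2.09 and 1.99 in DMSO and 1.35, 1.38 and 1.51 with AZD5153 at 24 hours. At 48 hours it was 2.05, 2.03 and 2.05 in DMSO and 1.54, 1.54 and 1.55 with AZD5153. In each of these ratios the treated libraries were separate from the DMSO libraries, and the Ku ratio with AZD5153 was 67.3% and 75.8% of DMSO at the 2 times.

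The ratio of *POLQ* to *LIG4*, the polymerase of one route against the ligase of the other, was 1.90 ± 0.066 in DMSO and 0.32 ± 0.048 with AZD5153 at 24 hours (SD, n = 3). At 48 hours it was 1.46 ± 0.088 and 0.51 ± 0.046. It stood at 16.9% and 35.1% of DMSO. The ratio of *XRCC4* to *NHEJ1*, whose products form filaments together, was 1.90 ± 0.16 and 0.34 ± 0.048 at 24 hours and 2.02 ± 0.38 and 0.29 ± 0.14 at 48 hours, or 18.4% and 13.99% of DMSO. For *XRCC4* to *LIG4* and *POLQ* to *LIG4* the separation of the arms is fixed by the single genes, which were separate in opposite directions at both times. For *XRCC5* to *XRCC6* and *XRCC4* to *NHEJ1* it is fixed as well, by the ranges of the single genes given above. A permutation test that exchanges labels within each time could then give only its smallest p. The 4 ratios are therefore a description and no test is given. They rest on the same libraries as the results of the single genes and are not independent of them.

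**Figure D3:**
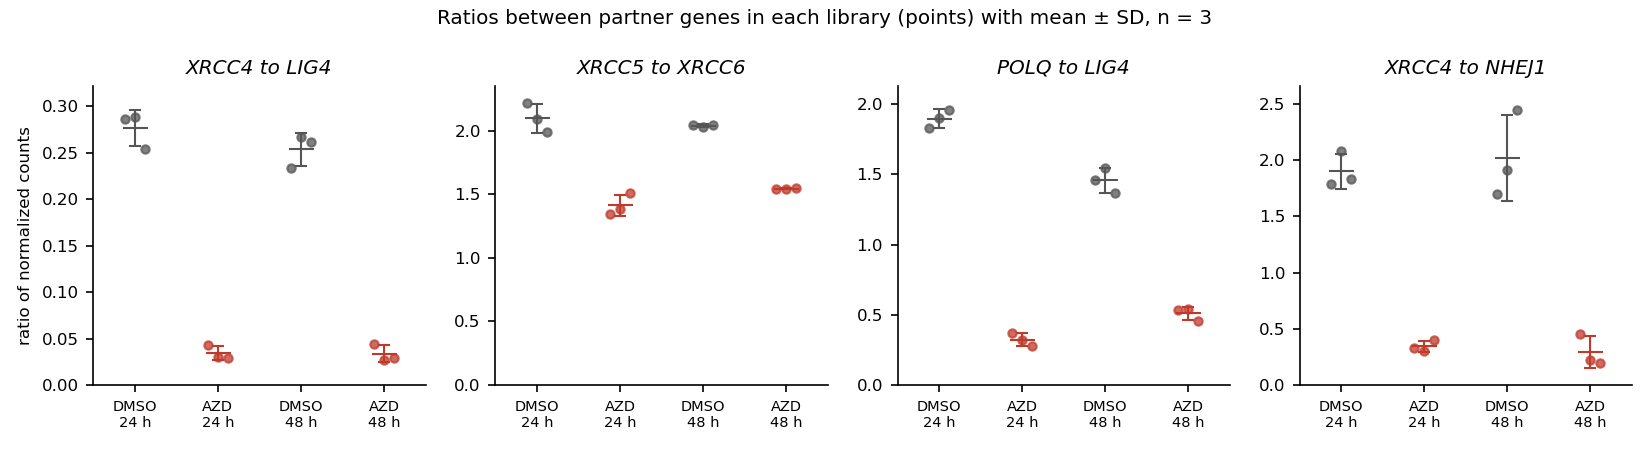
Ratio of normalized counts (vertical axis, from 0) between pairs of end-joining genes in each of the 12 libraries. DMSO is in grey and AZD5153 in red, points are libraries, lines are means and bars are ± SD (n = 3). In all 4 panels every red point lies below every grey point, from 0.045 and less against 0.23 and more for *XRCC4* to *LIG4*, to 1.55 and less against 1.99 and more for *XRCC5* to *XRCC6*.

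Of the 10 genes, 5 start within 1000 bases of another gene on the opposite strand, and the values of each pair are set side by side. *TMEM167A*, which starts 365 bases from *XRCC4* and shares no exonic base with it, had a log2 fold change of -0.16 (limma, adjusted p = 0.022) at 24 hours and -0.088 (adjusted p = 0.18) at 48 hours, where *XRCC4* had -2.33 and -2.19. *ABHD13*, 24 bases from *LIG4*, had 0.084 (limma, adjusted p = 0.32) and 0.16 (adjusted p = 0.065), where *LIG4* had 0.67 and 0.72. With equal totals *ABHD13* was at -0.039 and -0.012, where the median of all genes was at -0.12 and -0.17. *FBXO48*, 278 bases from *APLF*, had -0.46 (limma, adjusted p = 0.032; 0.05 in edgeR and in DESeq2) and -0.057 (adjusted p = 0.80), where *APLF* had 0.66 and 1.19. *MCM4*, a subunit of the replicative helicase that starts 7 bases from *PRKDC*, fell by 1.44 (limma, adjusted p = 1.8e-12) and 0.68 (adjusted p = 1.1e-08), where *PRKDC* had -0.38 and -0.055. *DESI1*, 120 bases from *XRCC6*, rose by 0.34 (limma, adjusted p = 0.00012) and 0.33 (adjusted p = 0.00017). The difference between the genes of a pair was not tested.

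**Figure D4:**
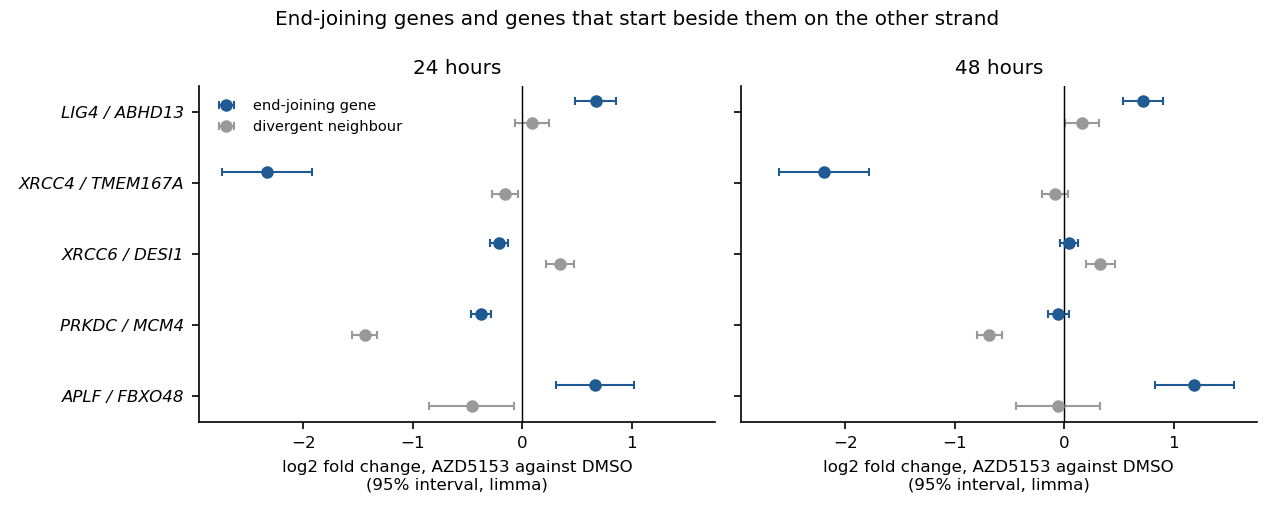
Log2 fold change of AZD5153 against DMSO (horizontal axis) at 24 hours (left) and 48 hours (right) for 5 end-joining genes (blue) and the gene that starts beside each on the other strand (grey), with 95% intervals from limma. *XRCC4* stands at -2.33 beside -0.16 for *TMEM167A*, and *MCM4* at -1.44 beside -0.38 for *PRKDC*.

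The genes whose levels over the 12 libraries were most like those of 4 of the end-joining genes were ranked by Pearson's r among 10954 genes with a symbol and a mean of at least 100 normalized counts. This is a description, since the libraries share treatment and time. *XRCC4* was most like *PEF1* (r = 0.994), *PRDM10* (0.993) and *BCAT1* (0.991), and 801 genes reached 0.95. *LIG4* was most like *DEPDC7* (0.987), *CTR9* (0.987), a subunit of the PAF1 elongation complex, and *PIAS1* (0.984), with 400 genes at 0.95 or more. *APLF* was most like *NDUFB11* (0.974), *EID1* (0.972) and *ZSWIM1* (0.970), with 60 genes at 0.95. *POLQ* was most like the mitotic kinesin gene *KIF11* (0.994), *C1orf174* (0.993) and a further mitotic kinesin gene, *KIF23* (0.992), with 418 genes at 0.95.

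Other genes of double-strand break repair were set beside the core. Their counts are to be read beside the 34.6% of all genes lower and 33.9% higher at 24 hours and the 33.9% and 33.1% at 48 hours. Of 9 genes for the processing of ends, 8 were tested, and 2 were lower and 3 higher at 24 hours (median log2 fold change 0.14) and 5 lower and 3 higher at 48 hours (-0.38; 3 lower with quantile normalization), beside 68.5% and 67% of all genes changed at the 2 times. *TDP1*, which removes adducts from 3′ ends, was at 36.4% and 52.3% of DMSO at the 2 times (log2 fold changes -1.46 and -0.93; limma, adjusted p = 2.7e-09 and 5.7e-07). *CYREN*, a small inhibitor of NHEJ that binds Ku, had -0.50 and -0.44 (limma, adjusted p = 0.0017 and 0.0039), and the latter was -0.22 (adjusted p = 0.12) with quantile normalization. The helicase gene *WRN* rose by 0.34 and 0.43 (limma, adjusted p = 0.0028 and 4.6e-04).

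Of 11 genes of the 53BP1 and shieldin branch, which protects ends from resection and so favours end joining, 7 were lower and 1 higher at 24 hours (median -0.69) and 4 lower and 4 higher at 48 hours (-0.41), so that the number changed, 8 of 11 at each time, was near the 68.5% and 67% of all genes. *MDC1*, the adaptor that reads γH2AX, had 42.0% and 43.2% of its DMSO level (log2 fold changes -1.25 and -1.21; limma, adjusted p = 4.8e-09 and 7e-09). The shieldin subunit gene *SHLD2* had -0.91 and -0.65 (limma, adjusted p = 4.5e-09 and 2.5e-07). *MAD2L2*, another shieldin subunit, went the other way and rose by 1.06 and 0.63 (adjusted p = 8.2e-08 and 2.5e-05).

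Of 12 genes for resection and alternative end joining, 9 were lower and 3 higher at 24 hours (median -1.16) and 8 lower and 3 higher at 48 hours (-0.80), beside 34.6% and 33.9% of all genes lower at the 2 times. The exonuclease gene *EXO1* had log2 fold changes of -2.20 and -0.77 (limma, adjusted p = 1.1e-12 and 2.5e-07). *RHNO1*, a partner of the 9-1-1 checkpoint clamp, had -1.56 and -1.16 (limma, adjusted p = 1.4e-10 and 5e-09). *PARP1*, which senses breaks, rose by 0.32 and 0.55 (adjusted p = 2.1e-06 and 3e-09), and *RAD50*, of the MRE11 complex, by 0.64 and 0.62 (adjusted p = 0.0019 and 0.0024).

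Homologous recombination is the template-based alternative to end joining. Of its 24 genes, 22 were lower and 1 higher at 24 hours (median -1.66) and 19 lower and 3 higher at 48 hours (-1.03), again beside 34.6% and 33.9% of all genes lower. The medians of the end-joining genes were -0.30 and -0.030. The difference between the lists was not tested. *RMI2*, of the complex that dissolves Holliday junctions, fell to 8.60% of DMSO at 24 hours and 19.5% at 48 hours (log2 fold changes -3.55 and -2.36; limma, adjusted p = 3.6e-12 and 4.4e-10). *FANCD2*, the crosslink repair gene, fell to 9.85% and 13.2% (-3.33 and -2.92; adjusted p = 9.4e-13 and 4.1e-12). *SLX4*, a scaffold for nucleases, rose by 1.39 and 1.34 (adjusted p = 1.7e-10 and 2.7e-10). Many genes of this list are also transcribed with the cell cycle. The part of the S phase and G2/M genes given above in these counts was not tested. Those lists were taken whole and may share genes with the repair lists and the other genes named, so their values need not be independent.

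**Figure D5:**
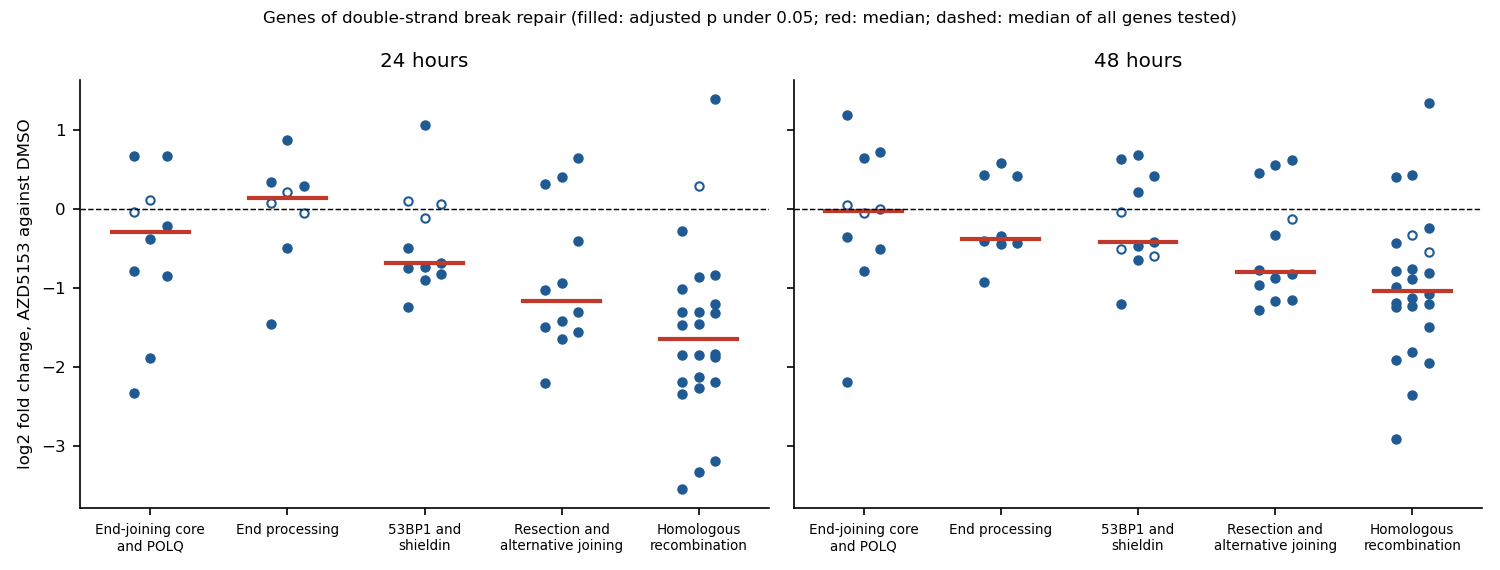
Log2 fold change of AZD5153 against DMSO (vertical axis) of single genes in 5 lists of double-strand break repair at 24 hours (left) and 48 hours (right); filled points passed limma at an adjusted p under 0.05, red lines are list medians and the dashed line is the median of all 15599 genes tested. The medians run from 0.14 for end processing to -1.66 for homologous recombination at 24 hours, with the end-joining genes spread on both sides of 0.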

How the data were processed

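RNA-Seq libraries of SF8628 cells were grouped by the labels. Per the labels and the study's methods, the authors mapped read pairs with STAR on the hg38 build, obtained gene counts with HTSeq and used DESeq2; versions, annotation and strand setting are not given in the sources used here. The deposited value of a gene in a library is a signal, its count over the size factor that DESeq2 gave that library. The authors' own comparison in the same table (log2 fold changes with standard errors, a score, namely the Wald statistic, and p-values) was not used, and no result here rests on the JQ1 or CUT&RUN samples.

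Of the values in each library, 100% came out as whole reads (within 0.01 of a whole number). Reads per library on genes had a median of 20737337. The members, lists and tests were chosen with earlier results of these data known. As the values are not raw counts, log2(normalized count + 1) of genes with a mean of at least 10 was fitted in limma 3.58.1 (R 4.3.3; 4 groups, 8 residual degrees of freedom, eBayes with a trend, Benjamini-Hochberg over 15599 genes at 0.05), and fold changes are on that scale, which understates those of low genes. On the recovered reads the edgeR 4.0.16 quasi-likelihood test called 10692 genes at 24 hours and 10577 at 48 hours and DESeq2 1.42.0 called 10607 and 10507, beside 10679 and 10453 in limma. Ratios were also put through exact permutation within time, but the single genes fix its outcome, so no p-value is given (SciPy 1.17.1 on Python 3.11.15 for the other steps). Positions are those of GENCODE on GRCh38. The limma, edgeR and DESeq2 fits were tested on simulated counts for the AZD5153 effect at 24 hours only. Far fewer genes were changed there than in these data, and the other steps were not tested in this way.

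Besides all members, the genes named are the 2 lowest and 2 highest of each list over both times among those past the threshold alike at both, the 3 genes most like each of *XRCC4*, *LIG4*, *APLF* and *POLQ*, and genes that overlap a member or start within 1000 bases of it. S phase and G2/M lists are those of Seurat 5.3.0. Some results are not reported here. Alternatives were the pseudocount (0.5, 10), the minimum mean (none, 100), the scaling (equal totals, quantile normalization, TMM), a replicate block, a fit of only the groups compared, eBayes without trend, both count models and each library left out.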

Additional observations from a re-analysis of the deposited data

Results flagged for a closer look

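For 4 of the 10 end-joining genes the AZD5153 effect at 48 hours differed from that at 24 hours by the interaction term in limma. Over all genes 24.5% showed such a difference, 14.4% with a higher and 10.1% with a lower value at 48 hours. The difference was 1.10 for *POLQ* (limma, adjusted p = 4.7e-06), 0.43 for *XRCC5* (adjusted p = 8.3e-04), 0.32 for *PRKDC* (adjusted p = 0.0016) and 0.26 for *XRCC6* (adjusted p = 0.0038), all on the log2 scale. With quantile normalization *XRCC6* did not pass, as given above, and *APLF* passed instead. In DMSO these 4 genes were lower at 48 than at 24 hours, and of them *POLQ* was also higher at 48 hours with AZD5153. In the same period 41 of 43 S phase genes and 44 of 53 G2/M genes were lower in DMSO, beside 19.3% of all genes. With AZD5153, 22 of 43 and 37 of 53 were higher at 48 hours, beside 15.8% of all genes, and 2 of each list were lower. The AZD5153 effect was higher at 48 than at 24 hours for 36 of 43 and 46 of 53, beside 14.4% of all genes. It was lower for 0 of either list. The part of these lists in the differences was not tested.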

How the results depend on the processing

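Of 700 values of the end-joining genes under settings other than leaving out a library, 681 kept their direction and side of the threshold, 4 lost the call, 6 gained one and 9 changed sign, and with a library left out these were 683, 4, 7 and 26 of 720. The number of genes changed at 48 hours was 7, but 9 with equal totals and with quantile normalization (over all 15599 genes 10453, 10405 and 10653). The number changed from 24 to 48 hours in AZD5153 was 2, but 1 with no minimum mean and 1 with quantile normalization, 3 with TMM factors and with only the groups compared, 2 with each other such setting, and 1 to 3 with a library left out. The genes that changed sign were at or near 0 in the values given above. With equal totals *XRCC6* was at -0.13 at 48 hours, *NHEJ1* at -0.011 at 24 hours, *ABHD13* at -0.039 and -0.012 at 24 and 48 hours, *APLF* at 0.026 in DMSO over time and *PAXX* at -0.014 for the difference between times. The median AZD5153 effect of all genes was then at -0.12 at 24 hours and -0.17 at 48 hours. With quantile normalization *XRCC6* was at -0.16 at 48 hours, *FBXO48* at 0.32 at 48 hours and *PAXX* at 0.046, 0.082 and 0.064 at 24 hours, 48 hours and over both. With TMM factors *PAXX* was at 0.011 at 48 hours. With a library left out, *PAXX* ranged from -0.38 to 0.20 at 24 hours, -0.056 to 0.051 at 48 hours, -0.19 to 0.099 over both, -0.21 to 0.37 for the difference, -0.40 to 0.18 in DMSO over time and -0.11 to 0.056 in AZD5153 over time. The ranges were -0.067 to 0.26 for *XRCC4* and -0.041 to 0.14 for *LIG4* in the difference, -0.044 to 0.0082 for *DCLRE1C* in AZD5153 over time, -0.0079 to 0.24 for *NHEJ1* at 24 hours, -0.082 to 0.039 for *APLF* in DMSO over time and -0.15 to 0.018 for *FBXO48* at 48 hours. The cause was not tested. *NHEJ1* over both times lost its call with equal totals (0.23, adjusted p = 0.12). Replicate numbers did not pair the libraries (18 pairs, r from -0.15 to 0.036), and with the replicate block 8, 7, 4, 5 and 2 genes changed in the 5 comparisons, the same numbers as without it. The block cannot move the 4 ratios, since every group holds the same replicate numbers.

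Depth limits *XRCC4*, *NHEJ1* and *APLF* most, which had 28 to 285 reads in a library. A library left out leaves 2 in its group, and its spread is then shared with the other groups. Protein levels and the joining of ends were not analysed here.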
